A study of Homo sapiens with 8 samples.

Results

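Calu-6 is an established human line from a lung carcinoma, and it was kept here for 24 h or 48 h in the solvent DMSO, the vehicle against which a compound was tested. The comparison described is of the 2 DMSO libraries taken at 48 h with the 2 taken at 24 h, which are 4 of the 8 libraries of the study. The other 4 were treated with KI696 at 1 µM, a compound that keeps KEAP1 from holding the transcription factor NRF2, for 24 h (2 libraries) or 48 h (2 libraries). All cells carry the genotype label WT and grew in RPMI with serum. They are 1 cell line, and the labels do not tell whether both libraries of a group come from separate cultures, so each p-value measures only the spread between these libraries. Poly(A) RNA was sequenced, and the deposited values are log2 CPM, the reads of a gene scaled to a common library size, with a small added count. Columns carry no replicate number, and the letters A and B only tell a group's pair apart by column order. The table held between 7048197 and 14170211 reads per DMSO library, and the deepest was DMSO 48 h B.

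The question that the vehicle answers is what differs in these cells between 48 h and 24 h in DMSO. Cell density and nutrient levels were not measured here, and their part in the changes below was not tested. Adherent cells left without passage become denser, use up amino acids and glucose, and lay down matrix, and dense cultures are known to divide more slowly. Mitotic genes are transcribed late in the cell cycle, so that their summed level follows the share of cells that are preparing to divide. ATF4 is the transcription factor that raises amino acid transporters and synthetases under amino acid shortage and other stress, and NRF2 raises antioxidant, iron-storage and pentose phosphate genes. In bulk RNA, fewer cells of a type and less RNA per cell cannot be told apart.

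In DMSO, 1274 of 13213 tested genes differed between 48 h and 24 h at an adjusted p under 0.05 (limma across all 8 libraries, two-sided, Benjamini-Hochberg over all tested genes). Of these, 699 were higher at 48 h, which is 5.29% of the tested genes, and 575 were lower, which is 4.35%. The changes were small. Their median size was 0.43 on the log2 scale, and 62 higher and 73 lower genes changed by at least 1. In all 1274 the 2 groups did not overlap, whereas both 48 h libraries were above both 24 h libraries in 26.5% of all tested genes and below both in 28.6%. The fit used all 8 libraries for its estimate of spread, with 4 residual degrees of freedom. Sharing the spread across genes along a trend with expression brought the total behind each p-value to 13.1. Leaving out DMSO 24 h A brought the count to 316, DMSO 24 h B to 448 and DMSO 48 h B to 782, and without DMSO 48 h A it was 1408. Leaving out KI696 24 h A or B, which changes only the shared spread, gave 826 and 828. Without the trend of variance on expression it was 153.

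**Figure D1:**
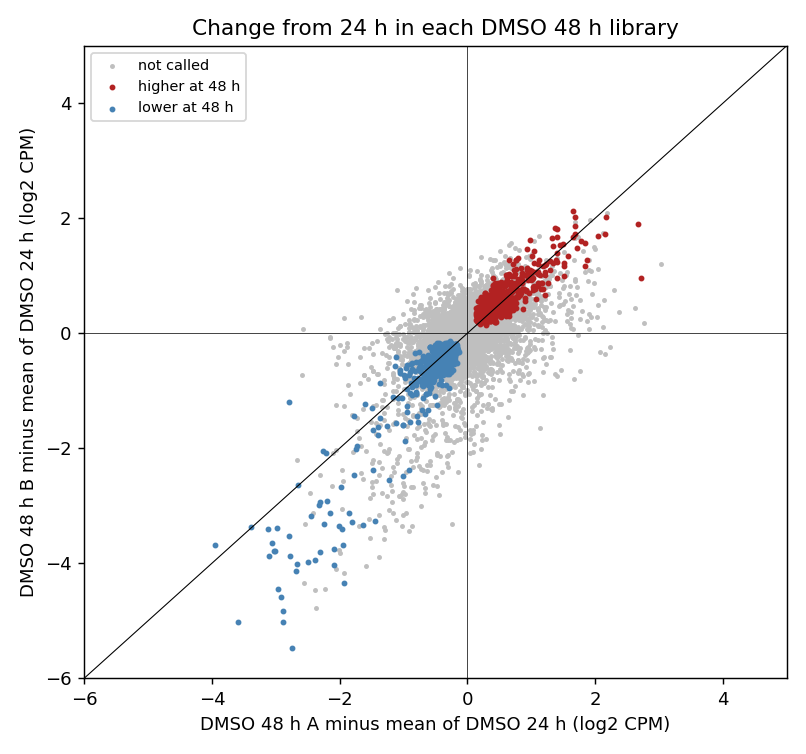
Each point is one of the 13213 tested genes, with its log2 CPM in DMSO 48 h A (x) and in DMSO 48 h B (y) relative to the mean of the 2 DMSO 24 h libraries; the line marks equal change. The 699 genes called higher are red and the 575 called lower blue, and genes below the line were lower in B than in A. Of the 345 genes at least 1 log2 unit lower in B than in A, 27 were called lower and 1 higher.

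The most uniform change was in the genes of mitosis. All 36 tested members of the list were lower in both 48 h libraries than in both 24 h libraries, and 35 of them fell at an adjusted p under 0.05, against 4.35% of all tested genes. Their median change was -0.52 on the log2 scale, with -0.46 in DMSO 48 h A and -0.58 in DMSO 48 h B, while the median of all tested genes was -0.01. KIF20A, a kinesin of the central spindle, was at 170 and 181 CPM at 24 h and at 108 and 103 CPM at 48 h, a change of -0.74 ± 0.07 (SE; adjusted p = 8.4e-05, limma). CCNA2, the cyclin of S and G2 phase, went from 161 and 160 CPM to 105 and 100 CPM. Both genes kept a gap between the time points far wider than the gap within them. DLGAP5, a spindle microtubule protein, was at 142 and 145 CPM and then at 93.7 and 87.5 CPM. ASPM, which acts at spindle poles, was at 172 and 171 CPM and then at 115 and 108 CPM. CCNB1, the mitotic cyclin that activates CDK1, fell from 260 and 261 CPM to 186 and 155 CPM. The proliferation antigen MKI67 fell by 0.66 ± 0.10 (adjusted p = 0.0015, limma), and the kinase PLK1 by 0.55 ± 0.06 (adjusted p = 0.00022, limma). The only member that missed the threshold was CDK1 itself, the mitotic kinase, at 308 and 291 CPM against 279 and 245 CPM (adjusted p = 0.09, limma). The weakest member called was CDC25B, a phosphatase that activates CDK1, with a change of -0.23. With any 1 DMSO library left out, between 27 and 36 members were called lower.

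Genes of DNA replication moved much less. Of 38 tested, 2 fell and none rose, against 4.35% and 5.29% of all tested genes. The median was -0.11, although 24 of the 38 were lower in both 48 h libraries, against 28.6% of all. The members that fell were TK1, thymidine kinase, from 150 and 142 CPM to 121 and 110 CPM, and RRM1, the large subunit of ribonucleotide reductase, from 198 and 203 CPM to 172 and 167 CPM. MCM2, a subunit of the replicative helicase, was at 239 and 253 CPM at 24 h and at 248 and 217 CPM at 48 h, with overlapping groups. Neither was called without DMSO 24 h A, 1 was without DMSO 24 h B or DMSO 48 h B, and without DMSO 48 h A 5 members were called. Of 25 tested G1 cyclins, CDKs and their inhibitors, 1 rose and 1 fell. CCND1, the G1 cyclin D1, rose from 879 and 891 CPM to 1005 and 1193 CPM, and E2F7, a repressor among the E2F factors, fell from 63.1 and 69.6 CPM to 49.3 and 54.2 CPM. Neither of them was called without DMSO 24 h A or without DMSO 24 h B. Of 26 tested p53 targets, PLK2 was the only one that rose (0.61 ± 0.12, adjusted p = 0.007, limma), and CDKN1A, the CDK inhibitor p21, had 28.2 and 27.5 CPM and then 39.2 and 36.1 CPM (adjusted p = 0.074, limma).

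Many mitotic promoters carry the cell cycle genes homology region, a short element through which the DREAM and MMB complexes set G2 and M phase transcription. The letters TTTGAA or TTCGAA, on either strand, were looked for in the RefSeq promoters (GRCh38.p14), which run from 250 bases before the start of transcription to 50 after it. They were present in 21 of the 31 mitosis genes that had a promoter in that table, in 2 of 34 DNA replication genes and in 16.6% of all 27305 promoters. CCAAT, the letters of the NF-Y box, stood in 24 of the 31 mitosis promoters, in 20 of the 34 replication promoters and in 35.7% of all. The motifs were searched one by one, and matches may overlap. Having the first motif did not separate the mitosis genes by their change. Of the 21 genes with it, 20 fell, with a median of -0.50, and all 10 without it fell, with a median of -0.61. The 150 bases before the start are shown for the 3 called mitosis genes with the smallest p that hold the element in these bases, its letters in capitals. DLGAP5 lies on the minus strand at chr14:55191586-55191735, ASPM on the minus strand at chr1:197146670-197146819 and CDC20, the activator of the anaphase-promoting complex, on the plus strand at chr1:43358831-43358980.
DLGAP5: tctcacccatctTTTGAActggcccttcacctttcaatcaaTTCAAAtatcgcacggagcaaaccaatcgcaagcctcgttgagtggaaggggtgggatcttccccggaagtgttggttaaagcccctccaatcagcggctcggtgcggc
ASPM: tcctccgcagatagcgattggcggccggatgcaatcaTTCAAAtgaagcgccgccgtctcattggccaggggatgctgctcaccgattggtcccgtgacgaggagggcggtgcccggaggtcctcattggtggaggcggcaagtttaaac
CDC20: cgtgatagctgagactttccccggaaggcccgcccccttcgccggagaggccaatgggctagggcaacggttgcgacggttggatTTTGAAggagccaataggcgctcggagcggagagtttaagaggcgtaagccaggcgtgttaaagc
CDC20 itself was at 194 and 199 CPM at 24 h and at 134 and 128 CPM at 48 h, a change of -0.58 ± 0.06 (adjusted p = 0.00013, limma).

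Genes of the ATF4 and amino acid response fell in part. Of 38 tested members, 11 fell and 1 rose, against 4.35% and 5.29% of all tested genes. The median change was -0.19, and 26 were lower in both 48 h libraries, against 28.6% of all. DDIT4, an inhibitor of the growth kinase mTORC1, was at 93.2 and 90.4 CPM at 24 h and at 56.4 and 48.3 CPM at 48 h (change -0.81 ± 0.08, adjusted p = 0.00012, limma). TRIB3, a pseudokinase induced by ATF4, went from 37.5 and 41.8 CPM to 22.6 and 19.1 CPM. ASNS, asparagine synthetase, went from 146 and 161 CPM to 92.5 and 85.7 CPM. In each of these 3 genes both 48 h libraries were well below both 24 h libraries. Of the amino acid transporters, SLC7A5 fell from 459 and 454 CPM to 329 and 288 CPM, its partner SLC3A2 from 302 and 299 CPM to 238 and 207 CPM, and the cystine transporter SLC7A11 from 127 and 131 CPM to 81.9 and 70.9 CPM. The transporters SLC38A2 (0.18), SLC1A5 (-0.03), SLC1A4 (-0.01), SLC6A9 (-0.16) and SLC7A1 (-0.19) did not pass. CTH, which makes cysteine, fell by 0.74, and ATF5, a relative of ATF4, by 0.56. The transcript of ATF4 fell by 0.19 ± 0.05 (adjusted p = 0.044, limma), from 301 and 298 CPM to 267 and 258 CPM, and lost its call in 10 of the 18 other settings, TMM and median-ratio scaling among them. CEBPB, a partner of ATF4, was the member that rose, by 0.34 ± 0.09 (adjusted p = 0.027, limma). With DMSO 24 h A left out 7 members were called lower, and with DMSO 24 h B left out 6.

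NRF2 targets are the genes that KI696 is meant to raise, and some of them fell in the vehicle alone. Of 32 tested core targets, 8 fell and 1 rose, against 4.35% and 5.29% of all tested genes. In 14, against 28.6% of all, both 48 h libraries were lower. The list's median was -0.14, with -0.06 in DMSO 48 h A and -0.33 in DMSO 48 h B, so that the list as a whole hardly moved in A. NQO1, the quinone reductase most often used as a read-out of NRF2, was at 521 and 486 CPM at 24 h and at 320 and 244 CPM at 48 h, a change of -0.85 ± 0.10 (adjusted p = 0.00031, limma). The ferritin light chain FTL went from 2211 and 2257 CPM to 1454 and 1204 CPM, and the heavy chain FTH1 from 1285 and 1271 CPM to 1049 and 845 CPM. For all 3 genes DMSO 48 h B was the lower of the pair. TXNRD1, thioredoxin reductase, fell by 0.33, ME1, malic enzyme, by 0.45, TKT, transketolase, by 0.30 and TRIM16 by 0.48. SLC7A11 is on this list as well as on that of ATF4. GCLM, a subunit of the enzyme that starts glutathione synthesis, was at 42.8 and 42.3 CPM and then at 40.1 and 33.5 CPM, and did not pass the test. HMOX1, heme oxygenase, had overlapping groups, with 14.5 and 21 CPM at 24 h and 38.6 and 19.1 CPM at 48 h. The export pump ABCC1 rose from 130 and 132 CPM to 180 and 166 CPM (adjusted p = 0.0035, limma). The count of falls was 4 without DMSO 24 h A, 5 without DMSO 24 h B and 15 without DMSO 48 h A.

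NQO1 was at 1824 and 1852 CPM in KI696 at 24 h and at 1939 and 2273 CPM at 48 h, above every DMSO library. FTL was at 6099 and 6317 CPM and then at 5746 and 6234 CPM. The change with time in KI696 was 0.19 for NQO1 (adjusted p = 0.25, limma) and -0.05 for FTL (adjusted p = 0.7, limma). The difference of the time changes, KI696 minus DMSO, was 1.04 for NQO1 (adjusted p = 0.0097, limma) and 0.70 for FTL (adjusted p = 0.012, limma), and in both genes it came with a fall in DMSO.

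**Figure D2:**
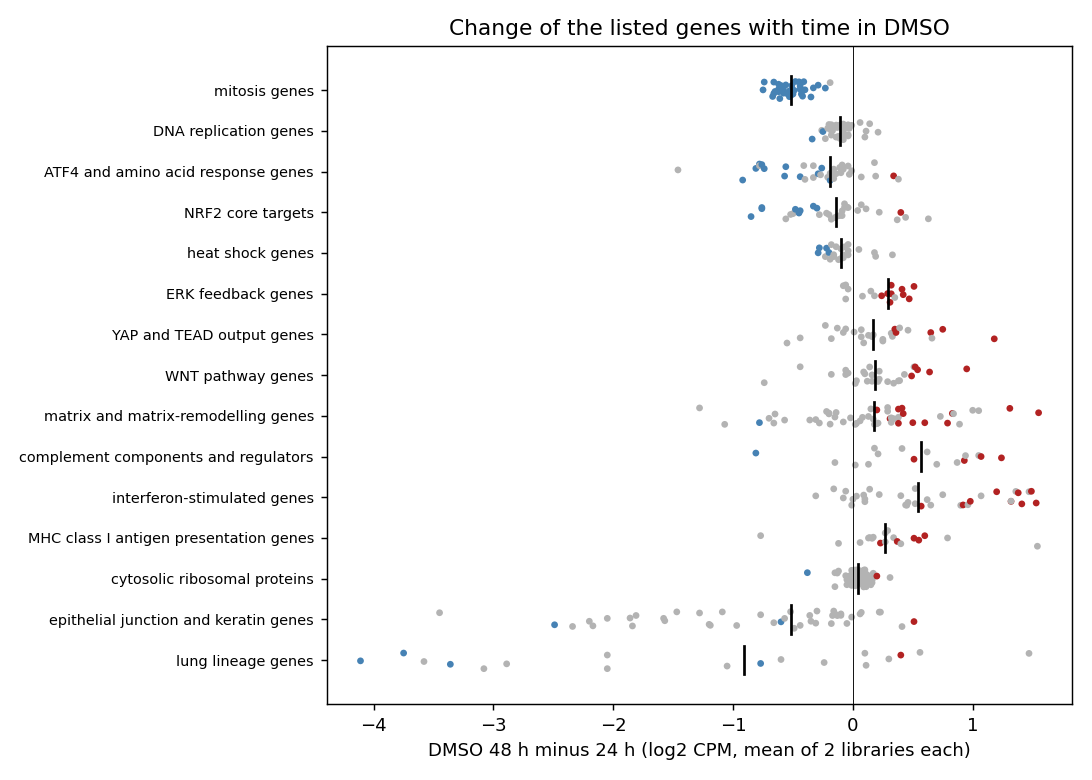
Each point is a tested gene of the named list, placed by its DMSO 48 h minus 24 h difference in log2 CPM (mean of 2 libraries each); red genes rose and blue genes fell at an adjusted p under 0.05, grey genes did not pass, the bar is the list's median and vertical scatter is for display. Mitosis genes form a tight group around -0.52, and the epithelial and lung lineage lists spread furthest to the left while few of their members passed.

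Of 17 tested genes that ERK signalling induces, most of which restrain it in turn, 9 rose by small amounts and none fell, against 5.29% of all tested genes, with a median change of 0.29. ETV1, ETV4, ETV5 and SPRED1 lay between -0.08 and -0.04 and did not pass. DUSP4, a phosphatase that inactivates ERK, was at 357 and 375 CPM at 24 h and at 473 and 500 CPM at 48 h (change 0.41 ± 0.06, adjusted p = 0.0015, limma). DUSP6 rose from 294 and 298 CPM to 361 and 378 CPM. Sprouty genes, which restrain receptor tyrosine kinases, rose with them: SPRY1 by 0.47, SPRY4 by 0.29 and SPRY2 by 0.24. These are rises of well under 1 on the log2 scale in genes whose paired libraries lay close together. The test called 2 of the 17 without DMSO 24 h A, 3 without DMSO 24 h B and 4 without DMSO 48 h B. Immediate early genes, which mitogens raise within minutes, did not move as a group: 3 of 26 tested rose and 1 fell. JUND rose from 79 and 88.7 CPM to 134 and 142 CPM, and FOSL1, another AP-1 subunit, fell from 108 and 88.6 CPM to 66.7 and 72.5 CPM.

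Of 51 tested matrix genes, 12 rose and 1 fell, against 5.29% and 4.35% of all tested genes, with a median of 0.18. TIMP3, an inhibitor of matrix metalloproteinases that stays bound to the matrix, lies at chr22:32801701-32863043 (GRCh38, GENCODE 29). It was at 765 and 760 CPM at 24 h and at 2033 and 2450 CPM at 48 h, a change of 1.55 ± 0.07 (adjusted p = 2.3e-07, limma) or 2.93-fold. FN1, fibronectin, went from 1491 and 1487 CPM to 2747 and 2549 CPM. LOXL2, a collagen cross-linking oxidase, rose from 50.3 and 42.5 CPM to 77.2 and 83.5 CPM. None of these 3 genes had overlapping groups, which was so for every called gene. COL5A2, a fibrillar collagen chain, rose by 0.50 and MMP14, a membrane-bound metalloproteinase, by 0.60. Rises in the list numbered 6 without DMSO 24 h A, 5 without DMSO 24 h B and 6 without DMSO 48 h B.

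IGFBP5, a binding protein for insulin-like growth factors, was the most abundant of its family and rose from 3303 and 3485 CPM to 4889 and 5529 CPM (0.62 ± 0.12, adjusted p = 0.0072, limma). IGFBP6 rose by 0.63, and they were the 2 called of 9 tested IGF-binding proteins; without DMSO 24 h A neither was called, and without DMSO 24 h B 1 was. Of 16 tested complement genes, 4 rose and 1 fell, against 5.29% and 4.35% of all tested genes. Among those that rose, the protease CFI went from 9.61 and 8.58 CPM to 18.9 and 24.9 CPM, the lytic component C7 from 23.5 and 24.8 CPM to 51.2 and 50.9 CPM, and clusterin (CLU) from 90.2 and 91.9 CPM to 128 and 131 CPM. CD55, which protects cells from complement, fell from 63.9 and 64.4 CPM to 39.1 and 34.2 CPM. With DMSO 24 h A, DMSO 24 h B or DMSO 48 h B left out, 2 complement genes were called higher.

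YAP and TEAD are the effectors of the Hippo pathway, which reads cell density. Of 26 tested output genes, 5 rose and none fell, with a median of 0.16. Counts of this and the next 2 lists stand beside 5.29% of all tested genes that rose and 4.35% that fell. CTGF (CCN2), a secreted matricellular protein, rose from 23.5 and 22.7 CPM to 52.6 and 52.8 CPM (change 1.18 ± 0.09, adjusted p = 2.4e-05, limma). ANKRD1 rose from 13.4 and 15.2 CPM to 22 and 26.7 CPM, and TGFB2 from 27.7 and 29.3 CPM to 43.4 and 46.6 CPM. CYR61 (CCN1), usually read together with CTGF, was at 37.4 and 32.8 CPM at 24 h and at 36.1 and 34.5 CPM at 48 h, so that its groups overlapped. Without DMSO 24 h A only 1 of the list was called, without DMSO 24 h B 3, without DMSO 48 h B 2 and without DMSO 48 h A 8. WNT pathway genes gave 5 rises and no fall among 28 tested, with a median of 0.19. The secreted antagonist DKK1 went from 123 and 123 CPM to 187 and 198 CPM, and DKK3 from 39.8 and 38.2 CPM to 70.8 and 81 CPM. The co-receptor LRP5 rose by 0.52, the receptor FZD8 by 0.49 and the transcription factor TCF7 by 0.54. Of 20 tested TGF-beta output genes, 4 rose: THBS1, LTBP2, SMAD3 and LTBP3; without DMSO 24 h A or DMSO 24 h B 1 was called, without DMSO 48 h B 2 and without DMSO 48 h A 6.

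Among the genes with the largest increases, FABP4, a carrier of fatty acids, was both abundant and uniform. It lies at chr8:81478419-81483263 and was at 490 and 432 CPM at 24 h and at 1487 and 1676 CPM at 48 h, a change of 1.78 ± 0.11 (adjusted p = 1.3e-06, limma). ANGPTL4, a secreted inhibitor of lipoprotein lipase, rose from 5.7 and 6.37 CPM to 16.1 and 22.1 CPM. NTRK2, the receptor for brain-derived neurotrophic factor, lies at chr9:84668551-85027070 and went from 7.24 and 7.06 CPM to 22.9 and 32.1 CPM, which was the largest increase among called genes with at least 5 CPM on average (1.89 ± 0.25, adjusted p = 0.00054, limma). TFF2, a secreted trefoil peptide, rose from 2.49 and 3.6 CPM to 10.2 and 12.9 CPM. CEACAM1, an adhesion molecule, was at 10.8 and 10.5 CPM and then at 34.7 and 36 CPM. All 5 of these genes were higher in both 48 h libraries than in both 24 h libraries, which the rule that chose them required. PTX3, a soluble pattern recognition protein, rose by 1.27, SLC14A1, a urea transporter, by 1.43, STMN2, a stathmin of neurons, by 1.46, SEMA3G, a secreted semaphorin, by 1.61 and APOBEC3G, a cytidine deaminase, by 1.34. WDR86 and LPPR3 complete the set of largest increases outside the interferon genes, with 1.67 and 1.34; WDR86 was not called without DMSO 24 h A or without DMSO 48 h B.

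**Figure D3:**
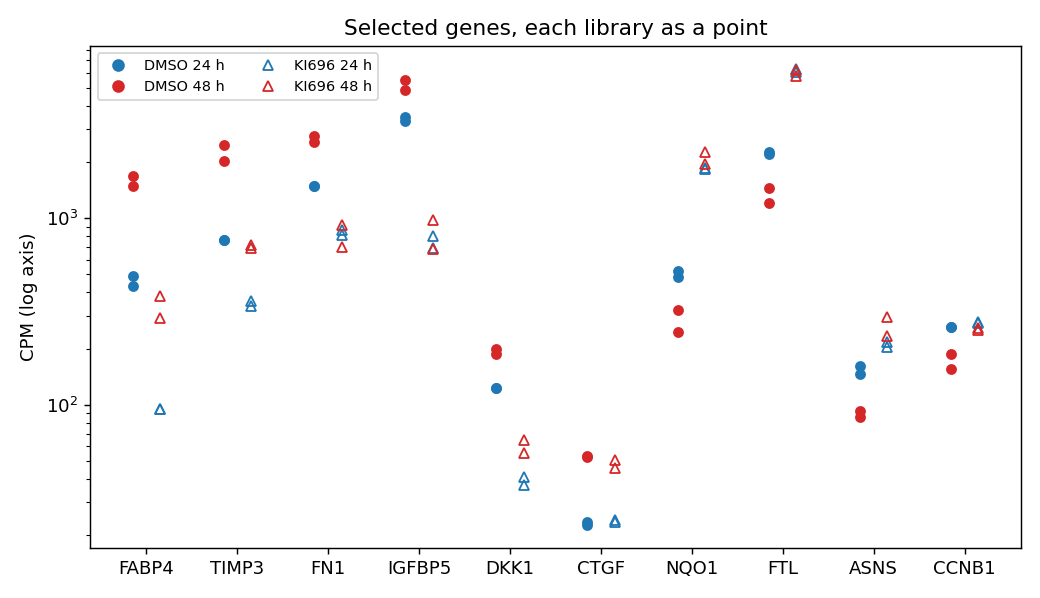
CPM on a log axis for 10 genes of the text in each of the 8 libraries; filled circles are DMSO, open triangles KI696, blue is 24 h and red is 48 h. In DMSO the 48 h points lie above the 24 h points from FABP4 to CTGF and below them from NQO1 to CCNB1.

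Lipid and energy genes gave mixed results, to be set beside the 5.29% of all tested genes that rose and the 4.35% that fell. Of 21 tested fatty acid synthesis genes, 6 rose and 1 fell. SCD, the desaturase that makes oleate, went from 1127 and 1225 CPM to 1529 and 1649 CPM (0.43 ± 0.06, adjusted p = 0.00056, limma), and ELOVL6, FADS2 and FADS1 rose by 0.44, 0.42 and 0.24. Without DMSO 24 h A 2 were called higher, and without DMSO 24 h B 3. Of 25 tested cholesterol synthesis genes, 2 rose, TM7SF2 by 0.72 and SREBF2 by 0.27; none was called without DMSO 24 h A or DMSO 48 h B, 1 was without DMSO 24 h B and 5 were without DMSO 48 h A. Hypoxia-inducible factor targets split, with 5 rises and 3 falls among 29 tested: EGLN3, an oxygen sensor, rose from 41.8 and 40.5 CPM to 77.1 and 62.8 CPM, and CA12, a carbonic anhydrase, from 14 and 14.7 CPM to 30.3 and 21.7 CPM. PFKFB4, which tunes glycolysis, fell from 28 and 28.4 CPM to 15.6 and 16.3 CPM, while 5 of 26 tested glycolysis genes rose, among them LDHB by 0.22. None of the glycolysis genes was called higher without DMSO 24 h A, and 1 was without DMSO 24 h B and 3 without DMSO 48 h B.

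Protein folding lists held few calls, to be set beside the 5.29% of all tested genes that rose and the 4.35% that fell. The heat shock list had a median change of -0.10 and the unfolded protein response list one of 0.05. Of 23 tested heat shock genes 4 fell, among them the co-chaperone DNAJB1 by 0.28 and HSP90AA1 by 0.22; without either 24 h library none was called, without DMSO 48 h B 1 was and without DMSO 48 h A 6 were. Of 26 tested unfolded protein response genes 3 rose, among them the chaperone CALR by 0.30 and the disulfide isomerase PDIA3 by 0.32; without either 24 h library 1 was called. Of 76 tested ribosomal protein genes, 1 rose and 1 fell, RPL15 and RPL17, each of which lost its call under at least 10 of the other settings. Of 41 ribosome biogenesis factors 3 fell, of which NPM1 went from 1117 and 1052 CPM to 933 and 898 CPM; none was called without DMSO 24 h A or DMSO 48 h B, 1 was without DMSO 24 h B and 7 were without DMSO 48 h A. Lysosomal genes gave 5 rises among 31 tested, led by the saposin precursor PSAP (0.38) and the protease CTSB (0.37); without DMSO 24 h A 2 were called and without DMSO 24 h B none. Genes linked to TXNIP and FoxO gave 5 rises and 1 fall among 28, with the repressor BCL6 at 53.4 and 57.6 CPM and then at 99.2 and 102 CPM; without DMSO 24 h A 3 were called higher. TSC22D3, a glucocorticoid-induced gene, fell from 27.3 and 30.2 CPM to 16.5 and 10.5 CPM.

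Interferon-stimulated genes were low but moved upward. Of 36 tested, 9 rose and none fell, against 5.29% and 4.35% of all tested genes. In 22, against 26.5% of all, both 48 h libraries were higher. The median change was 0.54, with 0.93 in DMSO 48 h A and 0.34 in DMSO 48 h B. The 9 changes lay between 0.57 and 1.53, and no called member passed 32.7 CPM in any DMSO library. IFIT3, an antiviral protein that works in a complex with IFIT1, was at 7.12 and 7.2 CPM at 24 h and at 19.3 and 17.2 CPM at 48 h (1.32 ± 0.24, adjusted p = 0.0044, limma). IFIT1 rose from 5.93 and 5.12 CPM to 13.9 and 12.2 CPM. OASL, a relative of the enzymes that sense double-stranded RNA, was at 5.34 and 5.4 CPM and then at 14.7 and 14.6 CPM. ISG15, the ubiquitin-like modifier, was at 17.1 and 14.7 CPM and then at 32.7 and 27.9 CPM, and the transcription factor IRF1 rose by 0.57. In each of these genes the groups were well apart. The other 4 called were IFIT2, IFI44, HERC5 and DDX60. Without DMSO 24 h A 2 of the list were called, without DMSO 24 h B 3, without DMSO 48 h A 4, and without either KI696 24 h library 5. Of 19 tested genes of MHC class I presentation, 5 rose and none fell. The light chain B2M went from 766 and 742 CPM to 994 and 956 CPM (0.37 ± 0.06, adjusted p = 0.0013, limma), and the peptide trimmer ERAP1 from 36 and 32.7 CPM to 49.3 and 51.3 CPM. Without DMSO 24 h A 3 of these were called, without DMSO 24 h B 1 and without DMSO 48 h A 2. NF-kB targets gave 4 rises among 21 tested, with RELB at 5.1 and 6.5 CPM and then at 14.1 and 10.8 CPM; none was called without DMSO 24 h A, and 1 was without DMSO 24 h B or DMSO 48 h A.

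Interferon response elements are bound by the ISGF3 complex and by interferon regulatory factors. The letters GAAAC, any 1 base and then GAAA, on either strand, were found in 15 of the 28 tested interferon-stimulated genes that had a RefSeq promoter, and in 0.769% of all 27305 promoters. Of the 15 genes with the motif 4 rose, with a median change of 0.65, and of the 13 without it 3 rose, with a median of 0.52. The 150 bases before the start are shown for the 3 called genes with the smallest p that hold the element, whose letters are in capitals: IFIT1 on the plus strand at chr10:89392473-89392622, IFI44 at chr1:78649639-78649788 and ISG15 at chr1:1013347-1013496, both also on the plus strand. These genes were already listed with interferon before the search, so that the motif describes the list and not its change.
IFIT1: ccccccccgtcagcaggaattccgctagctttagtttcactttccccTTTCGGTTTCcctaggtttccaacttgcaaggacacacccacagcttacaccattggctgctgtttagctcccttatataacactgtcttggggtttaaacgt
IFI44: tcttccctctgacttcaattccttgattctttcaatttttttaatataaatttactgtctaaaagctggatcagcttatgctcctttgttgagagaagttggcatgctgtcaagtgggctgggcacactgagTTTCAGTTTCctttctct
ISG15: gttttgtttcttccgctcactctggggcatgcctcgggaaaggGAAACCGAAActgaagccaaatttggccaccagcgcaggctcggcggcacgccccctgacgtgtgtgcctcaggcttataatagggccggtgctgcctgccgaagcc

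The largest decreases were of another kind. Among the 15 largest falls of called genes with at least 5 CPM on average, 8 were at least 1 log2 unit lower in DMSO 48 h B than in DMSO 48 h A. SFTPA1, a surfactant protein of alveolar cells, was at 6.17 and 18 CPM at 24 h, at 1.37 CPM in DMSO 48 h A and at 0 in DMSO 48 h B. SLC34A2, the phosphate transporter of alveolar type II cells, was at 11.2 and 17.7 CPM and then at 1.65 and 0.355 CPM. KRT4, a mucosal keratin, was at 54.4 and 30.2 CPM and then at 4.8 and 2.7 CPM. MAL2, a protein of apical membrane transport, was at 203 and 153 CPM and then at 48.6 and 20.1 CPM. In all 4 of these genes DMSO 48 h B was the lowest of the DMSO libraries. C1orf116, STEAP4, ARHGDIB, CST6, CRABP2, B3GNT3, NEBL and MPP7 had changes between -3.23 and -1.74. Of the 15 largest falls, 2 (SAMD12 and S100P) were still called with DMSO 24 h A, DMSO 24 h B or DMSO 48 h B left out. The decreases in which both pairs lay within 0.5 log2 units of each other were smaller. SAMD12 was at 12.3 and 13 CPM and then at 4.67 and 3.55 CPM. S100P, a calcium-binding protein, was at 39.6 and 37.8 CPM and then at 13.9 and 11.9 CPM (-1.58 ± 0.24, adjusted p = 0.0014, limma). FAM84B was at 184 and 183 CPM and then at 95.4 and 76.4 CPM, and DNMT3B, a DNA methyltransferase, at 8.07 and 8.86 CPM and then at 4.25 and 4.19 CPM. The others in that set were MROH6, LINC00565, CORO1A, HOOK1, KIF21B, TRIB3, NAV2, STEAP2, PIF1, EPS8L2 and MBOAT1.

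The epithelial, lung lineage and mucin lists had medians below 0, and few of the epithelial genes passed the test. Of 43 tested epithelial junction and keratin genes 24 were lower in both 48 h libraries, against 28.6% of all tested genes, with a median of -0.52. But 2 fell (MAL2 and KRT80) and 1 rose (CLDN1), against 4.35% and 5.29% of all. The median was -0.19 in DMSO 48 h A and -0.86 in DMSO 48 h B. CDH1, E-cadherin, was at 60.8 and 37.6 CPM at 24 h and at 34.3 and 7.39 CPM at 48 h (-1.57 ± 0.74, adjusted p = 0.21, limma). EPCAM, an epithelial adhesion molecule, was at 72.8 and 53.1 CPM and then at 42.5 and 16.9 CPM (adjusted p = 0.15, limma), and KRT19, a simple-epithelium keratin, at 353 and 227 CPM and then at 167 and 92.8 CPM (adjusted p = 0.11, limma). The general keratins KRT8 and KRT18 changed little, with KRT8 at 764 and 667 CPM at 24 h and at 635 and 695 CPM at 48 h, and KRT18 at 685 and 627 CPM and then at 574 and 626 CPM. Without DMSO 48 h A, 10 of the epithelial genes were called lower, and without DMSO 24 h A or DMSO 48 h B none. In a fit of only the 4 DMSO libraries 9 were called lower.

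NKX2-1, NAPSA and HOPX of the lung lineage were lowest in DMSO 48 h B. Of 18 tested lung lineage genes, 4 fell and 1 rose, against 4.35% and 5.29% of all tested genes, with a median of -0.91. The list's median was -0.86 in DMSO 48 h A and -0.61 in DMSO 48 h B. NKX2-1, the transcription factor of lung identity, was at 29 and 19.4 CPM and then at 12.1 and 2.49 CPM (adjusted p = 0.14, limma), and NAPSA, an aspartic protease of alveolar cells, at 18.5 and 21.9 CPM and then at 3.7 and 0.498 CPM (adjusted p = 0.064, limma). HOPX, a homeodomain protein of alveolar cells, was at 9.38 and 4.29 CPM and then at 0.549 and 0.284 CPM (-3.36 ± 0.73, adjusted p = 0.012, limma). ABCA3, the lipid transporter of lamellar bodies, was the member that rose, from 81.9 and 85.8 CPM to 108 and 113 CPM. Without DMSO 48 h A 7 were called lower, without DMSO 24 h B or DMSO 48 h B 1, and without DMSO 24 h A none. Of 19 tested mucin, CEACAM and secretory genes 7 fell and 3 rose. MUC1, a cell-surface mucin, was at 46.9 and 44.6 CPM and then at 15.8 and 6.04 CPM and did not pass (adjusted p = 0.14, limma), while TFF2, TFF3 and CEACAM1 rose. With DMSO 24 h A, DMSO 24 h B or DMSO 48 h B left out, 1 member of this list was called lower.

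The epithelial genes also differed between the paired libraries of the KI696 group at 48 h. CDH1 was at 1.1 and 2.99 CPM in KI696 at 24 h and at 29 and 4.46 CPM in KI696 48 h A and B. Across all tested genes, 345 were at least 1 log2 unit higher in DMSO 48 h A than in DMSO 48 h B, and 247 of these, or 71.6%, were also that much higher in KI696 48 h A than in B, against 4.2% of all tested genes. They made up 44.5% of the 555 genes with that gap in KI696. Of the 80 genes on at least 1 of the epithelial, lung lineage and mucin lists, 38 were among the 345. Letters stand for column order, and no label pairs the libraries. Of the 345 genes, 27 were called lower and 1 higher with time in DMSO, against 4.35% and 5.29% of all tested genes. Their median change was -0.70, but the DMSO 48 h values that chose these genes also enter that change. It is therefore no separate evidence of a change with time.

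**Figure D4:**
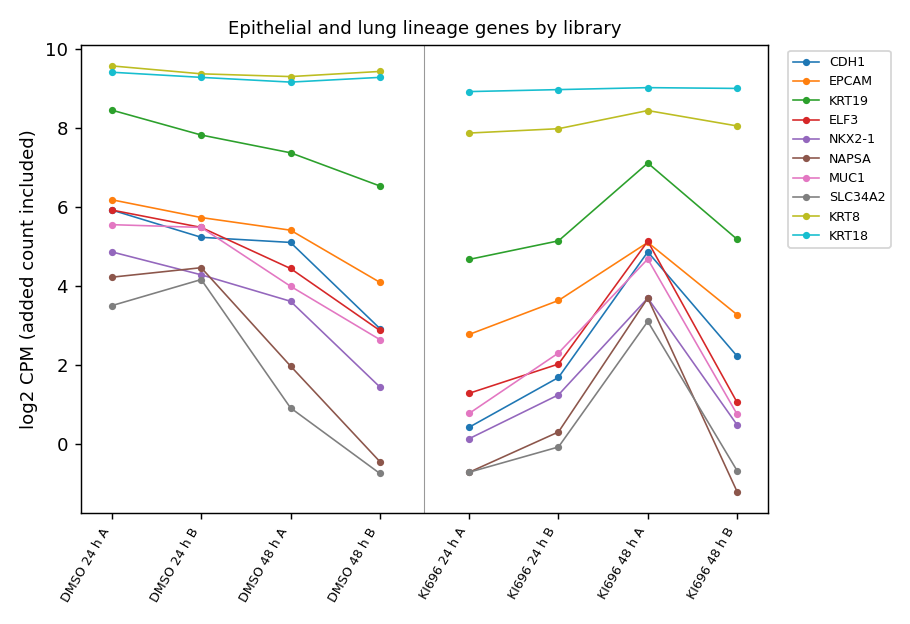
Log2 CPM of 10 epithelial and lung lineage genes in each of the 8 libraries; lines join the points of a gene and imply no order between libraries. CDH1, NKX2-1, NAPSA and SLC34A2 are lowest in DMSO 48 h B among the DMSO libraries and peak in KI696 48 h A among the KI696 libraries, while KRT8 and KRT18 stay near 9 in every DMSO library.

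Markers checked the labelled cell type. All 12 epithelial markers were tested, and 11 had at least 1 CPM in every DMSO library, with a summed level of 2136 and 1788 CPM at 24 h and of 1596 and 1485 CPM at 48 h. Of 11 lung lineage markers 8 were in the table, their summed level was 76 and 83.2 CPM at 24 h and 21 and 4.05 CPM at 48 h, and SFTPB and LAMP3 stayed under 1 CPM in every DMSO library. Of 6 mesenchymal markers 5 were in the table, with sums of 5414 and 5612 CPM and then 6506 and 7188 CPM, and VIM, the intermediate filament of mesenchymal cells, was at 3492 and 3680 CPM and then at 3339 and 4148 CPM. FN1 was the only mesenchymal marker called. Of 8 fibroblast and endothelial markers, CDH5 and VWF stayed under 1 CPM in every DMSO library, and the summed level was 205 and 197 CPM and then 248 and 230 CPM, with PDGFRB called higher. Of 8 leukocyte markers 4 were in the table, with sums of 48.1 and 47.5 CPM and then 45.6 and 42.2 CPM, mostly of CD68. None of the 12 epithelial markers was called, although 9 were lower in both 48 h libraries, against 28.6% of all tested genes. Of 6 tested lung lineage markers 3 were called lower. Over all tested genes 5.29% were called higher and 4.35% lower. Whether the lower summed levels had a part in the changes of the gene groups above was not tested.

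Whether the same drift occurred under KI696 was read from the change between its own 4 libraries, which share none with DMSO. The spread behind the calls of both groups came from the same fit of all 8 libraries. Calls in DMSO and in KI696 are therefore not independent of each other. In KI696, 1107 genes were higher at 48 h than at 24 h, or 8.38% of those tested, and 477 were lower, or 3.61%. TMM scaling moved that balance to 817 higher and 606 lower. Of the 699 genes that rose in DMSO, 630 had the same sign in KI696 and 347 were also called higher there, and 7 were called lower. Of the 575 that fell, 391 had the same sign, 128 were also called lower and 14 were called higher. The called counts stand beside the 8.38% and 3.61% of all tested genes called in KI696. No same-sign share of all tested genes was set beside 630 and 391. Over all tested genes the time changes in DMSO and in KI696 had a correlation of 0.08, in which genes with large changes weigh most. The epithelial, lung lineage and mucin lists had medians of -0.52, -0.91 and -1.78 in DMSO and of 0.93, 0.53 and 0.84 in KI696. Mitosis (-0.52 and -0.13) and interferon genes (0.54 and 0.60) kept their sign. How far any of these genes set the correlation was not tested. The median KI696 change of all tested genes was 0.04. The median change in KI696 was 0.30 for the genes that rose in DMSO and -0.10 for those that fell, against 0.43 and -0.43 in DMSO itself, where they had been chosen.

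The test of the difference itself, KI696 change minus DMSO change, passed for 112 genes, or 0.848% of those tested, with 89 above 0 and 23 below. With TMM scaling the split was 54 and 27, and with median-ratio scaling 62 and 35. The count was 5 without DMSO 24 h A, 3 without DMSO 24 h B, 2 without KI696 24 h A and 1 without KI696 24 h B, and it rose to 503 without DMSO 48 h A and 530 without KI696 48 h B. Mitosis genes made up 10 of the 112. Their median change in KI696 was -0.13, and 10 of 36 fell there, against 3.61% of all tested genes. CCNB1 was at 274 and 277 CPM in KI696 at 24 h and at 250 and 257 CPM at 48 h, and its changes differed by 0.50 (adjusted p = 0.046, limma). MKI67 fell in both, by 0.66 in DMSO and by 0.59 in KI696, and the difference did not pass (adjusted p = 0.86, limma). Of the ATF4 list 7 passed. ASNS, which fell in DMSO, was at 216 and 204 CPM in KI696 at 24 h and at 232 and 296 CPM at 48 h (difference 1.10, adjusted p = 0.0058, limma). DDIT4 rose in KI696 from 74.3 and 71.6 CPM to 111 and 103 CPM, opposite to DMSO (difference 1.36, adjusted p = 0.00039, limma).

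**Figure D5:**
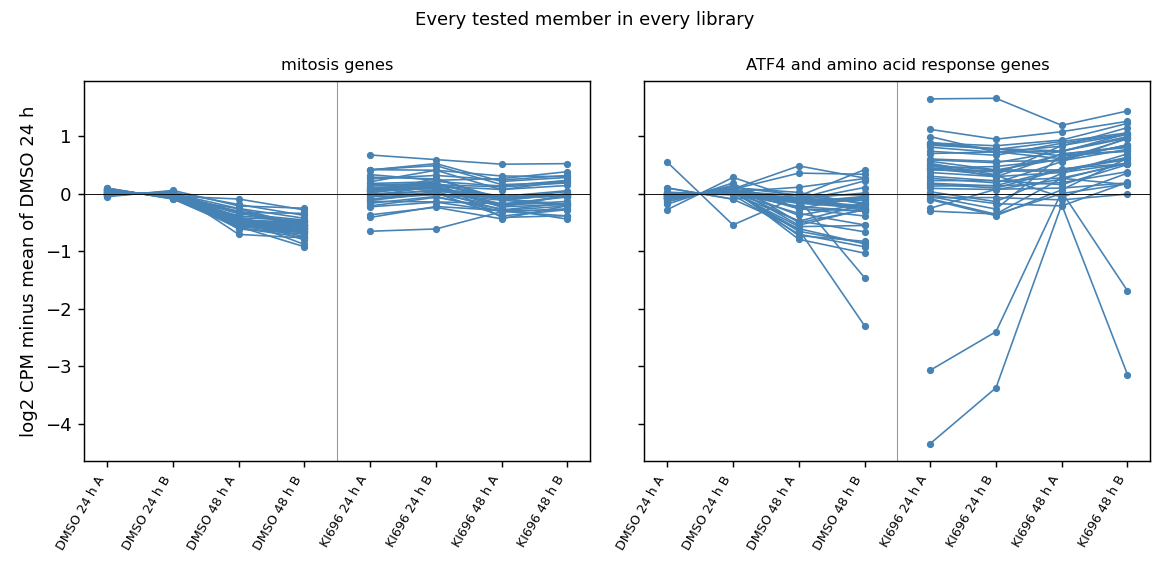
Log2 CPM of every tested member of the mitosis list (left, 36 genes) and the ATF4 list (right, 38 genes), each relative to its mean in the 2 DMSO 24 h libraries; lines join the points of a gene and imply no order. All mitosis genes lie below 0 in both DMSO 48 h libraries, and their KI696 points at both times spread around 0.

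Of 51 tested matrix genes, 4 passed the test of the difference below 0 and none above. Among all 13213 tested genes, 23 passed below 0 and 89 above. FN1 was at 863 and 809 CPM in KI696 at 24 h and at 918 and 701 CPM at 48 h, with no call for time (adjusted p = 0.73, limma), and its change was 0.89 lower than in DMSO (difference -0.89, adjusted p = 0.01, limma). TIMP3 rose in both groups, from 358 and 339 CPM to 720 and 691 CPM in KI696, and the rise was smaller than in DMSO by 0.53 (difference -0.53, adjusted p = 0.035, limma). FABP4 rose alike on the log2 scale in both, by 1.81 in KI696 from 94.8 and 95.1 CPM to 383 and 290 CPM (difference 0.03, adjusted p = 0.95, limma), at levels below those of DMSO. CTGF rose by 1.01 in KI696, from 23.4 and 24.2 CPM to 46 and 50.5 CPM. The largest differences above 0 were in SAMD12, TSC22D3, TMEM156, RIMS3 and ARHGEF16, and those below 0 in IGFBP7, LRRC17, HIST1H2BK, APOE and LTBP2. APOE, a lipid carrier, rose in DMSO from 34.4 and 32.9 CPM to 60.4 and 55.4 CPM and was at 19.8 and 17.8 CPM and then at 16.5 and 13.4 CPM in KI696. LTBP2, a matrix protein, rose in DMSO and fell in KI696 from 204 and 189 CPM to 132 and 151 CPM.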

How the data were processed

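Poly(A) RNA of 8 Calu-6 libraries (4 in DMSO, 4 in KI696) was compared. The deposited table holds log2 CPM; an added count of about 2 reads was read from the values. The submitters' processing notes name hg38, R 4.0.3 and edgeR without saying what each was used for, and which aligner or read counter was used is not given in the sources used here. Steps of the deposited log2 values gave back whole reads for every gene, to within 2.4e-09 of a read, and CPM without the added count were taken from them. Of 14556 rows, 21 with symbols turned into dates were left out, and 13213 genes that reached 1 CPM in 2 or more libraries were tested. The deposited log2 values were fitted with limma 3.58.1 (R 4.3.3) by group mean over all 8 libraries with a variance trend. Tests were two-sided, with Benjamini-Hochberg adjustment at 0.05. The method was tested on simulated data in which every gene and library had the same spread beyond counting error. Groups that differ in spread, like the 2 DMSO pairs here, were not simulated. Fold changes are on the log2 scale with the added count, which understates those of low genes. A list is described by counts and medians. Named genes were the 15 largest changes each way among called genes without overlap that averaged 5 CPM or more in DMSO, the 15 largest each way with pairs within 0.5 log2 units, the 4 members of each list with the smallest p and defining members, and the 5 largest differences each way; further members of the described lists were added after their values were seen. The comparison, the 37 gene lists and the tests were chosen with earlier results of these data known. The replicates of DMSO at 24 h differed by a chi-square of 1.7 per degree of freedom over genes, and those at 48 h by 4.9, so that neither pair agreed within counting error. Gene coordinates are from GENCODE 29 (GRCh38), and 92.6% of the tested symbols matched 1 gene. Promoters are from RefSeq (GRCh38.p14), the first listed start of each gene. A count of 3 reads is worth between 0.213 and 0.415 CPM in the DMSO libraries, and values near that are counting-limited. Some members of the lists are counted but not reported here by name.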

Additional observations from a re-analysis of the deposited data

Results flagged for a closer look

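For the genes below, the change from 24 h to 48 h differed between KI696 and DMSO by the test of the difference itself (limma, adjusted p under 0.05). Values are the KI696 change minus the DMSO change on the log2 scale. Each rests on 2 libraries a group, and most were not called when 1 of the 24 h libraries was left out. For mitosis genes the difference was 0.95 for CDC25C, 0.63 for HMMR, 0.53 for DLGAP5, 0.52 for BIRC5, 0.51 for KIF2C, 0.51 for PTTG1, 0.50 for CCNB1, 0.49 for CCNB2, 0.49 for KIF20A and 0.46 for CDC20, and for the replication gene TK1 it was 0.61.

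Among ATF4 and amino acid genes it was 1.36 for DDIT4, 1.10 for ASNS, 1.03 for TRIB3, 0.73 for SLC7A5, 0.55 for MTHFD2 and 0.53 for ATF4. Among NRF2 targets it was 1.04 for NQO1, 0.70 for FTL and 0.55 for TKT. Other genes with a difference above 0 were B3GNT3 at 3.14, SAMD12 at 2.80, TSC22D3 at 1.90, TMEM156 at 1.83, RIMS3 at 1.79, ARHGEF16 at 1.54, FAM84B at 1.38 and CYR61 at 1.01. In CYR61 the DMSO groups overlapped, and KI696 went from 14.6 and 14.4 CPM to 33.4 and 26.3 CPM.

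Differences below 0 were found for IGFBP7 at -1.39, LRRC17 at -1.38, HIST1H2BK at -1.20, APOE at -1.11, LTBP2 at -0.90, FN1 at -0.89, PLAUR at -0.57 and TIMP3 at -0.53. IGFBP7 and LRRC17 did not pass the test for time in DMSO, and both fell in KI696, IGFBP7 from 8.08 and 7.41 CPM to 3.79 and 3.39 CPM and LRRC17 from 8.33 and 10.4 CPM to 3.93 and 3 CPM.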

How the results depend on the processing

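Against 1274 called genes for DMSO, dropping the variance trend gave 153, and leaving out 1 library in turn gave between 316 and 1646. Dropping the trend gave 152 of 1584 genes for KI696 and 0 of 112 for the difference (limma; 1681 genes had an unadjusted p under 0.05). Leaving out 1 library in turn gave between 258 and 1945 genes for KI696 and between 1 and 530 for the difference. The difference passed for 190 genes with 5 added to CPM and for 5 with no filter. Without the trend, calls fell to 12 for mitosis, 1 for ATF4, 1 for NRF2, 0 for ERK feedback, 1 for interferon and 1 for matrix genes, and with no filter interferon calls were 5. Leaving out 1 library in turn gave 27 to 36 mitosis, 6 to 16 ATF4, 4 to 15 NRF2, 2 to 9 ERK feedback, 2 to 13 interferon and 5 to 16 matrix calls. Of 219 called genes named or listed in the text, 25 kept their call in all 18 other settings and 75 in all but the one without the trend, and none changed direction. Some uncalled genes changed sign: with 1 library left out in turn, CYR61 ranged from -0.08 to 0.10, ESAM from -0.98 to 0.02, LRRC17 from -0.11 to 0.13, MCM2 from -0.18 to 0.01, MT1E from -0.23 to 2.24 and VIM from -0.10 to 0.21, and CYR61 was -0.00 with voom and VIM -0.16 with quantile normalization; the cause was not tested. Leaving out KI696 libraries from the DMSO contrast was added after seeing the data. No paired analysis was possible because the column headers carry no replicate numbers. A lone library left in a group is assumed to vary like the others.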

Other observations

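Several small lists had isolated calls, to be set beside the 5.29% of all tested genes that rose and the 4.35% that fell. Of 16 tested circadian clock genes 1 rose and 1 fell: BHLHE41, a repressor of the clock, rose from 89.7 and 82.5 CPM to 101 and 118 CPM, and CLOCK fell from 26.3 and 24.8 CPM to 19.8 and 17.3 CPM. Both lost their call without DMSO 24 h A, without DMSO 24 h B and without DMSO 48 h B. Of 7 tested genes in the metallothionein list 2 fell: MT2A, which binds zinc and copper, went from 574 and 524 CPM to 383 and 469 CPM, and MTF1, the metal-responsive transcription factor, from 14.6 and 16.7 CPM to 11.3 and 11.1 CPM. MTF1 lost its call in 11 of the 18 other settings, and MT2A in 3. Of 15 tested histone genes 2 rose, HIST1H1C and HIST1H2BK, and of 49 respiratory chain subunits 1 rose, COX5A. Of 5 tested leukocyte-list genes 2 fell, CORO1A and LAPTM5. All 5 of these genes lost their call without DMSO 24 h A. Of 9 tested fibroblast and endothelial genes PDGFRB rose and KDR fell, and KDR had 9.26 and 6.23 CPM at 24 h, 0.823 CPM in DMSO 48 h A and 0 in DMSO 48 h B. PDGFRB and KDR lost their call without either 24 h library. Of 19 tested EMT and mesenchymal genes 5 rose, among them S100A4, and SNAI2, a repressor of E-cadherin, fell from 15.3 and 14.5 CPM to 11.1 and 10.6 CPM, a call lost without either 24 h library.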
